A study of Mus musculus with 21 samples.

Results

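*Atxn7l2* and the genes of the SAGA deubiquitinase module were followed across 4 diet groups in RNA-seq libraries of the mouse ventral hypothalamus (VH). The 6 members were *Atxn7l2*, *Atxn7*, *Atxn7l1*, *Atxn7l3*, *Usp22* and *Eny2*, taken by symbol from a table of 21654 genes in which each had a single entry, and all 6 were among the 12768 genes that averaged at least 50 reads per library and were tested. *Atxn7l2* was selected because its reads differed among the diet groups, so its values are a description and carry no test. The other 5 members were selected as its partners and paralogs, and their differences were tested.

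The study asked which traits of diet-induced obesity follow the diet eaten now and which follow body weight, by switching the diet of some mice (diet switch, DS). All mice were male C57/B6J animals acquired at an age of 12 to 14 weeks (strain label C57/BL6, named C57BL/6J by the authors). All were kept awake with unfamiliar objects for 3 hours before the tissue was taken. RC NoDS mice ate regular chow (RC) throughout (n = 5 libraries) and HFD NoDS mice ate a high-fat diet (HFD) throughout (n = 5). RC → HFD mice moved from chronic chow to a short period of HFD (n = 6) and HFD → RC mice from chronic HFD to a short period of chow (n = 5). Each library held polyA RNA of punches pooled from 2 mice, so the spread between libraries is that between pools, and the punches mix several nuclei and cell types. The deposited totals lay between 16380781 and 16390598 reads per library, because the authors had drawn every library down to a common depth.

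SAGA is a transcriptional coactivator that carries a histone acetyltransferase and, as a separate module, a deubiquitinase that takes ubiquitin off histone H2B. USP22 is the enzyme of that module and works only when bound to ATXN7L3 and ENY2, while ATXN7 tethers the module to the rest of the complex; ATXN7L1 and ATXN7L2 are paralogs of ATXN7. In brain the module is best known through ATXN7, whose expanded polyglutamine tract causes a spinocerebellar ataxia with loss of vision.

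The tissue label was checked against marker genes, summed per library as CPM, that is reads scaled to a common library total. Markers of the arcuate nucleus, of which *Pomc* was the most abundant of 7, summed to 713 to 1419 CPM. Those of the ventromedial nucleus, led by *Nr5a1* (3 genes), summed to 83.3 to 259 CPM. Both nuclei were thus present in all 21 libraries. Markers of the paraventricular nucleus (5 genes) summed to 309.9 to 1933 CPM, mostly from *Avp*, while *Sim1* and *Crh* averaged only 41.4 and 8.16 normalised reads. Markers of the lateral hypothalamus (*Hcrt* and *Pmch*) summed to 23.1 to 146 CPM. Carryover of other tissue was low or uneven. Choroid plexus markers summed to 13.98 to 36.9 CPM, with *Ttr*, *Folr1*, *Otx2* and *Kcne2* below the read minimum and each at 0 in at least 1 library, and pituitary and blood markers to 30.6 to 449.6 CPM, led by *Hbb-b1*.

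*Atxn7l2* (ENSMUSG00000048997) is encoded on the minus strand of chromosome 3 (chr3:108005140-108013852, NCBIM37, the assembly also called mm9), with 7 annotated transcripts and 4848 exonic bases. In RC NoDS it had 357, 321, 422, 359 and 356 normalised reads, that is reads per library after scaling by the trimmed mean of M-values (TMM), with a mean of 363 ± 36.7 (SD, n = 5). In RC → HFD the lowest library had 356, the median was 374 and the highest library had 435 (mean 388 ± 31.5, n = 6). These groups overlapped over most of their range. In HFD → RC it had 339, 301, 369.5, 299.8 and 323 (mean 326 ± 29.1, n = 5). In HFD NoDS it had 447, 486, 485, 479.9 and 458 (mean 471 ± 17.8, n = 5). The 5 HFD NoDS libraries were the 5 highest of the 21, and the lowest of them, at 447, stood above the highest RC → HFD library at 435. The lowest 5 places were held by 4 HFD → RC libraries and RC NoDS replicate 2, and HFD → RC overlapped RC NoDS and RC → HFD. In such mixed tissue, fewer cells that carry a transcript and less transcript per cell cannot be told apart.

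As differences between group means, *Atxn7l2* was 1.30-fold higher in HFD NoDS than in RC NoDS, a log2 difference of 0.38 (SE 0.11). It was 1.21-fold higher in HFD NoDS than in RC → HFD, by 0.28 on the log2 scale (SE 0.11). HFD → RC stood at 0.693 of HFD NoDS, a log2 difference of -0.53 (SE 0.11), the widest of the 6 pairs. The pairs without HFD NoDS lay closer together. HFD → RC differed from RC → HFD by -0.25 (SE 0.11) and from RC NoDS by -0.15 (SE 0.11), and RC → HFD differed from RC NoDS by 0.10 (SE 0.11), within its error. Set against earlier diet, HFD now instead of chow went with more *Atxn7l2* in mice with an HFD history than in mice with a chow history, by 0.43 on the log2 scale (SE 0.15). All 5 HFD NoDS libraries lay above all 16 others for 4 of the 12768 genes tested (0.0313%), *Atxn7l2* among them, and above all 5 HFD → RC libraries for 73 (0.572%); the gene was selected on these values and nothing is read from its place.

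**Figure D1:**
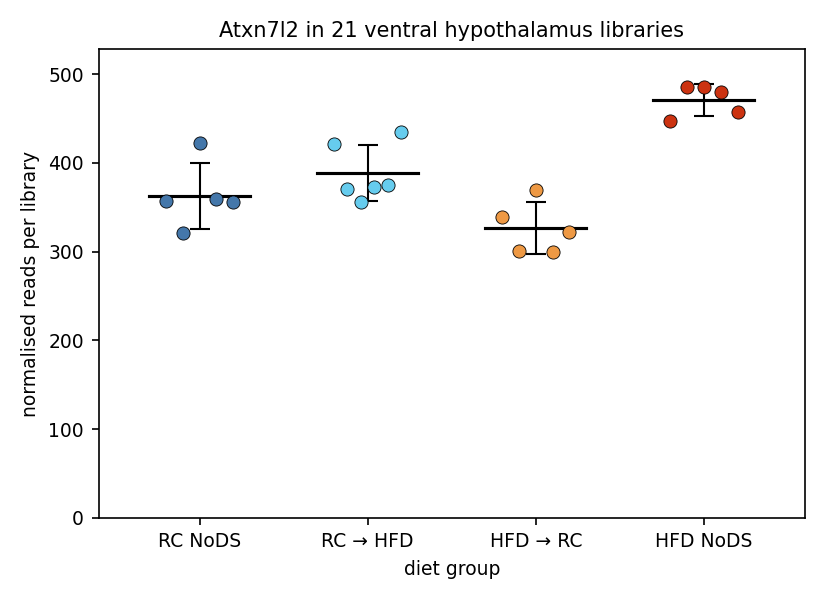
*Atxn7l2* reads per library after TMM scaling (vertical axis, from 0) in the 4 diet groups (horizontal axis). Each point is a library of 2 pooled mice, lines are group means and bars are ± SD; the HFD NoDS points lie between 447 and 486, above every other library.

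The spread of *Atxn7l2* within groups was small. The coefficient of variation was 10.1% in RC NoDS, 8.12% in RC → HFD and 8.92% in HFD → RC, against 5.22%, 5.09% and 5.55% that counting error alone gives at these depths. In HFD NoDS it was 3.79%, below the 4.61% of counting error. The gene was selected on these values, so nothing is read from their spread.

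Levels were compared between genes per length, as reads per kilobase of annotated exon scaled to a common library total (RPKM), averaged over the 21 libraries. *Usp22*, the enzyme, had the highest level, 79.3 ± 4.02 (SD). *Atxn7l3*, the adaptor that activates it, followed at 43.3 ± 3.91, and *Eny2*, the small adaptor shared with the TREX-2 mRNA export complex, at 15.3 ± 3.08. This order held in 21 of 21 libraries. The ataxin-7 paralogs formed a group of low level, with *Atxn7l2* at 4.87 ± 0.749, *Atxn7l1* at 3.69 ± 0.481 and *Atxn7* at 3.40 ± 0.546. *Eny2* stood above *Atxn7l2* in 21 of 21 libraries. Within the low group *Atxn7l2* stood above *Atxn7* in 20 libraries and above *Atxn7l1* in 18, whereas *Atxn7l1* stood above *Atxn7* in only 14, so the last pair did not separate beyond its spread. The exon length of *Atxn7l1*, 12523 bases, joins 17 annotated transcripts and lowers its level per length if only some are used.

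By group, the level of *Atxn7l2* per length was 4.62 ± 0.454 in RC NoDS, 4.86 ± 0.381 in RC → HFD, 4.09 ± 0.343 in HFD → RC and 5.93 ± 0.230 in HFD NoDS. *Atxn7* was at 3.53 ± 0.340, 3.31 ± 0.358, 3.29 ± 0.911 and 3.47 ± 0.575 in the same order. The gap between these paralogs was thus widest in HFD NoDS and narrowest in HFD → RC, where the spread of *Atxn7* was also largest.

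None of the other 5 members was called by edgeR's quasi-likelihood test, with p adjusted by Benjamini-Hochberg over all 12768 genes and a threshold of 0.15, in any of 8 comparisons. Among all 4 groups 0 of 5 were called against 19 of all genes tested (0.149%), with a smallest adjusted p of 0.645. In HFD NoDS against RC NoDS 0 of 5 were called against 10 genes (0.0783%), and in HFD → RC against RC → HFD 0 of 5 against 1 gene (0.00783%). With so few genes called, a count of 0 among 5 is also the background count. It was 0 of 5 in RC → HFD against RC NoDS (5 genes, 0.0392%), in HFD → RC against HFD NoDS (9 genes, 0.0705%) and in HFD → RC against RC NoDS (36 genes, 0.282%). It was 0 of 5 in HFD NoDS against RC → HFD (2 genes, 0.0157%) and for the interaction of present and earlier diet (4 genes, 0.0313%). At an unadjusted p under 0.05, edgeR gave 1 member in HFD → RC against RC NoDS, 1 in HFD → RC against RC → HFD and 0 in the other 6 comparisons, and that member was *Atxn7l3* both times. Of all genes tested, 8.10% and 5.35% fell under that p in these pairs. Over the 8 comparisons the members gave 2 of 40 tests (5.00%, against 7.45% over all genes). The 8 comparisons share the same 4 group means, so such tests, here and in the lists below, were not independent of each other. DESeq2 also called 0 and gave *Atxn7l3* at unadjusted p under 0.05 in the same pairs and among all 4 groups, while limma-voom called 0 and gave it in HFD → RC against RC NoDS only. An adjusted p above the threshold does not show that the groups were alike.

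*Usp22* (chr11:60965287-60988557, minus strand), the ubiquitin hydrolase, varied least of the members relative to its level. It had 5951, 6517, 6409.5, 6707 and 6149 normalised reads in RC NoDS. In RC → HFD the lowest library had 6374, the median was 6609.7 and the highest had 6661. In HFD → RC it had 6114.5, 5473, 6402, 6649 and 5992. The groups overlapped, and the lowest library of the 21 was HFD → RC replicate 14. HFD NoDS libraries had 6879.8, 6287, 6021, 6149.5 and 6153. The widest difference, HFD → RC against RC → HFD, was -0.10 on the log2 scale (SE 0.054, adjusted p = 0.961 by edgeR), with group means of 6126 and 6576.

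*Atxn7l3* (chr11:102150614-102157945, minus strand), needed with ENY2 for USP22 activity, had 2599, 2693, 2948, 2484 and 2911 normalised reads in RC NoDS. In RC → HFD it was nearly constant, with a lowest of 2805, a median of 2829 and a highest of 2902. In HFD → RC it had 3116, 3087, 3532, 2894 and 3174. The HFD → RC libraries were mostly high, but replicate 16, at 2894, lay within both chow-history groups. In HFD NoDS it had 3298, 3474, 3054.5, 2501 and 2619, a spread (SD 421) that covered nearly the whole range of the other groups. HFD → RC against RC NoDS differed by 0.21 on the log2 scale (SE 0.078, 1.16-fold), with an unadjusted p of 0.0112 and an adjusted p of 0.414 by edgeR, so it was not called. HFD → RC against RC → HFD differed by 0.15 (SE 0.075, adjusted p = 0.927 by edgeR). The direction of these values was opposite to that of *Atxn7l2*, which was lower in HFD → RC than in both groups.

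*Eny2* (chr15:44259657-44269231, plus strand) had 789, 840.1, 669.7, 533 and 606 normalised reads in RC NoDS. In RC → HFD the lowest library had 509, the median was 593 and the highest had 655. In HFD → RC it had 543, 601, 584, 603.5 and 502. RC NoDS held the highest libraries and overlapped both switched groups. In HFD NoDS it had 708, 268, 599, 614 and 747, and replicate 20, at 268, was the lowest of all 21 libraries. HFD → RC against RC NoDS differed by -0.28 on the log2 scale (SE 0.17, adjusted p = 0.707 by edgeR) and HFD NoDS against RC NoDS by -0.23 (SE 0.17, adjusted p = 0.748).

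The *Eny2* values moved with library complexity, measured as the zero share, the percentage without a single read in a library among the 3116 genes with a mean from 5 to 50 reads. It averaged 3.22% in RC NoDS (1.12 to 7.22%), 11.9% in RC → HFD (2.31 to 22.4%), 16.5% in HFD → RC (5.68 to 31.9%) and 16.3% in HFD NoDS (7.70 to 32.9%). The highest zero share was that of HFD NoDS replicate 20, the library with the least *Eny2*. With the zero share as a covariate, the *Eny2* difference was 0.05 (SE 0.16) for HFD NoDS against RC NoDS and 0.05 (SE 0.17) for HFD → RC against RC NoDS, so both turned from lower to slightly higher, neither further from 0 than its SE. For *Atxn7l2* the same covariate left -0.53 (SE 0.11) for HFD → RC against HFD NoDS and 0.39 (SE 0.13) for HFD NoDS against RC NoDS. Without the 4 libraries with a zero share over 20%, a choice made after seeing the data (RC → HFD replicate 12, HFD → RC replicates 14 and 17, HFD NoDS replicate 20), *Atxn7l2* differed by -0.48 (SE 0.13) and 0.36 (SE 0.11) in these pairs. *Eny2* then stayed lower than in RC NoDS, by -0.045 (SE 0.12) in HFD NoDS and -0.25 (SE 0.13) in HFD → RC. The HFD NoDS library with the lowest zero share, replicate 24 at 7.70%, had 458 reads of *Atxn7l2*.

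*Atxn7* (chr14:14845005-14939810, plus strand), the anchor of the module, had 347, 409, 372.5, 452 and 379.7 normalised reads in RC NoDS. In RC → HFD the lowest library had 332, the median was 357 and the highest had 445. In HFD → RC it had 349, 336, 389.9, 531 and 251. HFD → RC held both the highest and the lowest library of the 21, replicates 16 and 17. In HFD NoDS it had 343, 395.5, 475, 419 and 313. The group means, 392, 373, 371 and 389, lay closer together than the libraries of any group, and HFD NoDS against RC NoDS differed by -0.0097 on the log2 scale (SE 0.15, adjusted p = 0.991 by edgeR).

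*Atxn7l1* (chr12:33832558-34060524, plus strand) had 708, 803, 754, 937 and 676 normalised reads in RC NoDS. In RC → HFD the lowest library had 719.6, the median was 766 and the highest had 853. In HFD → RC it had 709, 535, 750.2, 958 and 896. The HFD → RC libraries spanned all others. HFD NoDS libraries had 657, 655, 799, 726 and 722, with a mean of 712 against 775 in RC NoDS, a log2 difference of -0.12 (SE 0.12, adjusted p = 0.796 by edgeR). Neither *Atxn7* nor *Atxn7l1* had its highest group mean in HFD NoDS, where *Atxn7l2* was highest.

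**Figure D2:**
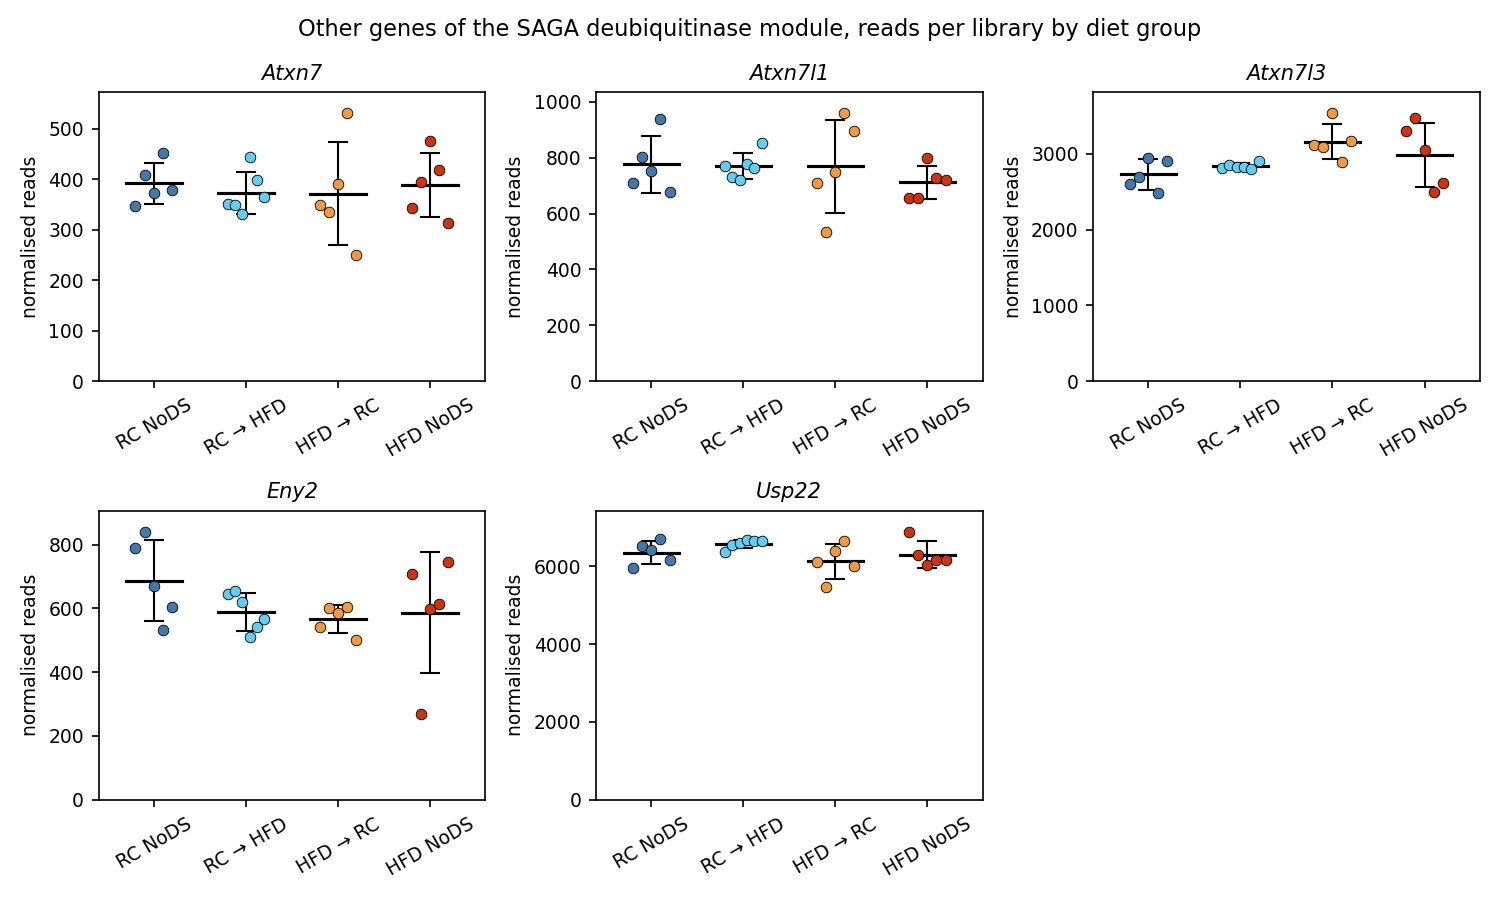
Normalised reads per library (vertical axes, from 0) of *Atxn7*, *Atxn7l1*, *Atxn7l3*, *Eny2* and *Usp22* in the 4 diet groups. Points are libraries, lines group means and bars ± SD; the groups overlap in every panel, and the low *Eny2* point in HFD NoDS is replicate 20 at 268.

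Alternative partners of the adaptors were given by a list of 3 genes. USP27X and USP51 can replace USP22 on ATXN7L3 and ENY2, and ATXN7L3B is a paralog of ATXN7L3 that binds ENY2. Per length, *Atxn7l3b* was at 51.8 ± 4.58 (SD over 21 libraries), above *Atxn7l3* in 18 of them, *Usp27x* at 13.6 ± 1.52 and *Usp51* at 5.61 ± 1.47, which was above *Atxn7l2* in 14. edgeR called none of the 3 in any of the 8 comparisons and gave 5 unadjusted p under 0.05 in 24 tests (20.8%, against 7.45% over all genes tested), as did limma-voom, which also called 0, while DESeq2 called 3, all *Usp51*. *Usp51* came nearest. It had 290.3, 287, 242, 261 and 229 normalised reads in RC NoDS and 99.3, 189.8, 130.3, 182 and 182 in HFD → RC. In the remaining groups the libraries ran from 164 to 235 in RC → HFD and from 153 to 265 in HFD NoDS. The log2 difference of HFD → RC against RC NoDS was -0.74 (SE 0.19, adjusted p = 0.164 by edgeR), and the interaction of present and earlier diet was 0.94 (SE 0.27, adjusted p = 0.246 by edgeR). DESeq2 put *Usp51* past the threshold among all 4 groups (adjusted p = 0.119), in HFD → RC against RC NoDS (0.0516) and for the interaction (0.0993), where it called 133 (1.04%), 147 (1.15%) and 116 (0.909%) of all genes tested, against 19, 36 and 4 by edgeR. In edgeR the pair also passed in 4 of the 21 fits that left out a single library, and the interaction in 1, while the others stayed above the threshold. The adjusted p of the pair was 0.138 when this was RC NoDS replicate 6, 0.147 for RC → HFD replicate 12, 0.0759 for HFD → RC replicate 16 and 0.0843 for HFD NoDS replicate 20, and leaving out the last gave 0.120 for the interaction. Over all genes tested these 4 fits called 67, 76, 205 and 145 in the pair, in that order, against 36 with all 21 libraries. The fit without HFD NoDS replicate 20 called 124 for the interaction, against 4. Without the 4 libraries of high zero share the pair was at -0.93 (adjusted p = 0.0632 by edgeR). The interaction was then at 1.21 (adjusted p = 0.0661 by edgeR). That fit called 104 of all genes in the pair and 250 for the interaction. No other gene of the lists around SAGA passed the threshold in edgeR, DESeq2 or limma-voom, nor in edgeR with any single library left out.

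The rest of SAGA gave no called gene. The 18 subunits outside the deubiquitinase module, covering the acetyltransferase module, the core and the splicing subunits, had 19 entries in the table (2 for *Taf9*), of which 19 were tested and edgeR called 0 in each of the 8 comparisons. DESeq2 and limma-voom also called 0. At an unadjusted p under 0.05 edgeR gave 1 entry in each of 4 pairs and 0 in the other 4 comparisons (4 of 152 tests in all, 2.63%, against 7.45% over all genes tested). DESeq2 gave 6 (3.95%, against 7.99%) and limma-voom 5 (3.29%, against 7.64%), so these shares also lay below those over all genes. The median log2 difference of the entries was -0.011 in HFD NoDS against RC NoDS, against 0.0065 over all genes tested, with 8 above 0 and 11 below. Their values ran from -0.30 to 0.41. In HFD → RC against HFD NoDS they ran from -0.37 to 0.29, less far down than *Atxn7l2* at -0.53. The subunits did not move as a block in either pair.

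Further lists covered the ATAC complex, which shares the acetyltransferase (7 genes), TREX-2, which shares ENY2 (5), the enzymes that ubiquitinate H2B and their cofactors (10), other deubiquitinases of H2A and H2B (7, of which *Usp44* was below the read minimum) and genes with disease-causing polyglutamine tracts (9, *Atxn7* included). Together with SAGA and the alternative partners they held 59 entries without the 6 members, of which 58 were tested. edgeR and limma-voom called 0 in all 8 comparisons, each with 13 unadjusted p under 0.05 over all of them, and DESeq2 called *Usp51* in 3 comparisons and no other gene. At an unadjusted p under 0.05, 0 of 58 stood out in HFD NoDS against RC NoDS, 3 in HFD → RC against HFD NoDS (5.17%, against 7.93% of all genes) and 1 among all 4 groups (1.72%, against 7.97%). These shares were below those over all genes. The gene of each list with the smallest p among all 4 groups was *Ccdc101* in the acetyltransferase module (adjusted p = 0.771 by edgeR), *Taf9b* in the core (0.694) and *Sf3b3* in the splicing subunits (0.882). In the other lists it was *Dr1* in ATAC (adjusted p = 0.680 by edgeR), *Pcid2* in TREX-2 (0.831), *Ube2a* among the ubiquitinating enzymes (0.781), *Usp16* among other deubiquitinases (0.659) and *Atxn1* among the polyglutamine genes (0.753).

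By list, the median log2 difference in HFD → RC against HFD NoDS was 0.075 for the acetyltransferase module, -0.035 for the core, 0.015 for the splicing subunits, -0.0050 for ATAC and -0.11 for the alternative partners. It was 0.045 for TREX-2, -0.0056 for the ubiquitinating enzymes, 0.11 for the other deubiquitinases and -0.043 for the polyglutamine genes, against 0.0047 over all genes tested. All of the 6 other deubiquitinases tested had a value above 0, with none called. In HFD NoDS against RC NoDS the medians ran from -0.15 for the other deubiquitinases to 0.064 for the polyglutamine genes.

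**Figure D3:**
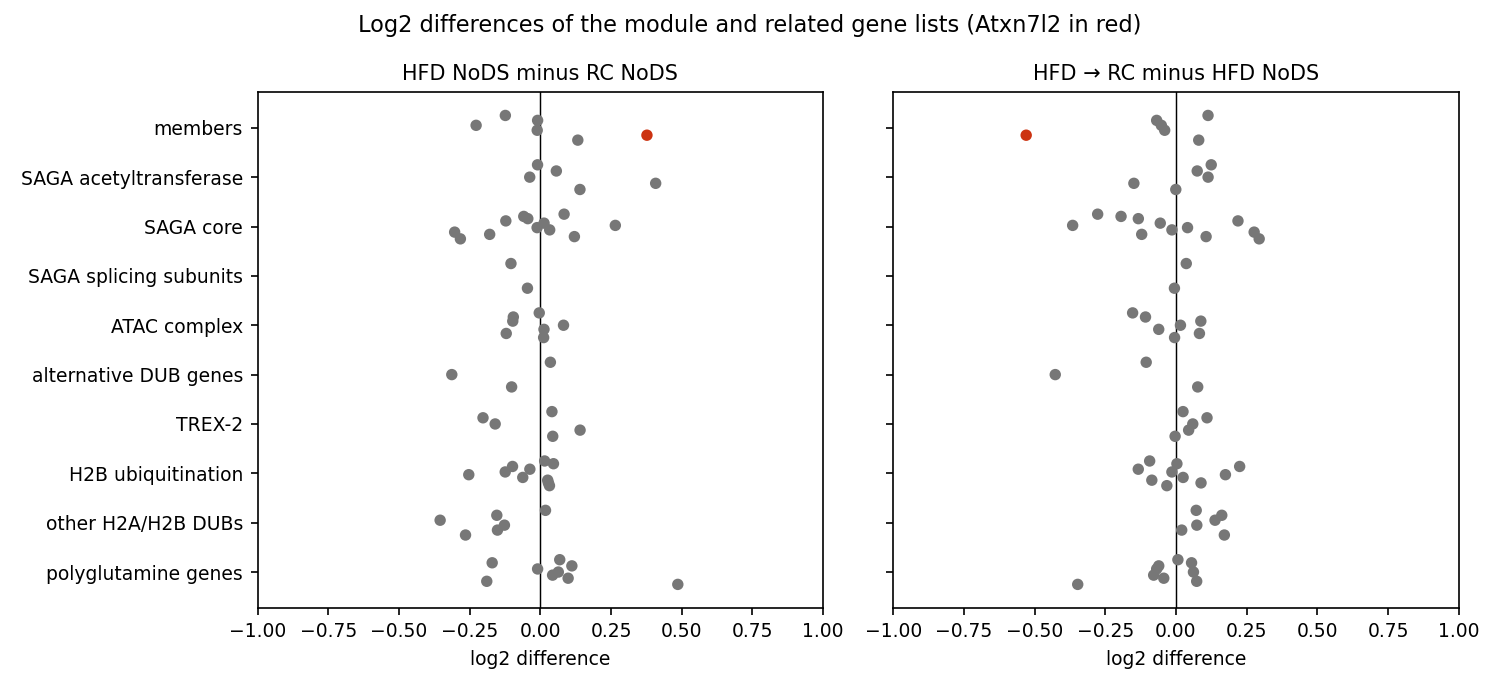
Log2 differences (horizontal axes) of the members and of the genes of each list (vertical axis) for HFD NoDS minus RC NoDS and HFD → RC minus HFD NoDS. Each point is a gene, and *Atxn7l2*, in red, is at 0.38 and -0.53.

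No annotated gene overlaps *Atxn7l2* on chromosome 3, and 2 of the 6 nearest genes were above the read minimum. *Cyb561d1*, 1009 bases downstream on the same strand, had group means of 261, 304, 293 and 292 normalised reads in RC NoDS, RC → HFD, HFD → RC and HFD NoDS, with a log2 difference of 0.16 (SE 0.20) for HFD NoDS against RC NoDS and an adjusted p of 0.919 by edgeR among all 4 groups. *Amigo1*, 9935 bases downstream on the plus strand, had means of 2101, 2161, 2063 and 2054 (adjusted p = 0.920 by edgeR among all 4 groups). *Sypl2*, whose annotated end lies 537 bases upstream of *Atxn7l2* on the same strand, was below the read minimum, at 0 to 66.5. The remaining near genes, *Gm12524*, *Gm12501* and *1700010K24Rik*, had at most 7.08 normalised reads in any library. Over the 21 libraries the Pearson r with *Atxn7l2* was 0.093 for *Cyb561d1* and 0.094 for *Amigo1*. Without HFD NoDS replicates 20 and 21, the libraries farthest from the median of *Atxn7l2*, r was -0.11 and 0.21. The sign for *Cyb561d1* thus changed with those libraries.

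**Figure D4:**
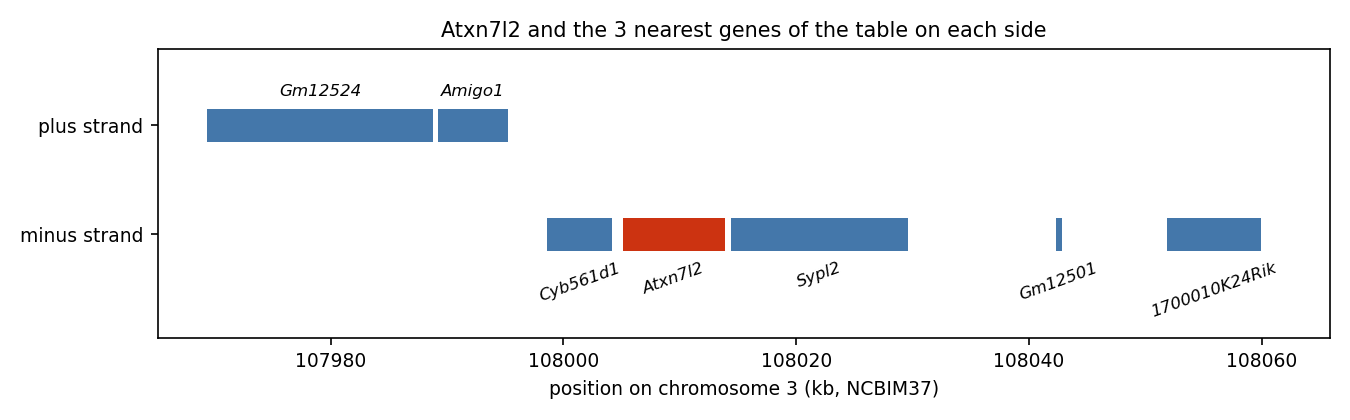
*Atxn7l2* (red) and the 3 nearest genes of the table on each side, by strand, along chromosome 3 in kilobases of NCBIM37. Bars run from gene start to gene end; no bar overlaps that of *Atxn7l2*.

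Reads of the members could be told apart from each other at the read length of 100 bases. Of the distinct 100-base windows of the annotated protein-coding transcripts, 4449 for *Atxn7l2*, 6748 for *Atxn7*, 9647 for *Atxn7l1*, 4112 for *Atxn7l3*, 4335 for *Usp22* and 2330 for *Eny2*, 0 recurred exactly in a protein-coding transcript of another gene. Windows taken every 10 bases from the transcript with the longest coding sequence and placed on the genome had a copy elsewhere with at most 2 mismatches in 1 of 675 cases for *Atxn7* and 3 of 233 for *Eny2*, and in 0 cases for the other 4 members. *Eny2* shares 132 exonic bases with *Nudcd1* on the opposite strand, and *Atxn7l1* shares 193 with *4930556N08Rik*. The libraries were made with a stranded kit, but whether the authors' counting used the strand is not given in the sources used here. Reads from these stretches may therefore not have been told apart, and the values of *Eny2* and *Atxn7l1* carry that uncertainty.

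The closest coding stretches of *Atxn7l2* and its paralogs show how far apart the genes are at read length, and are printed for that reason. Over 100 bases without gaps, *Atxn7l2* and *Atxn7* matched best at 75 bases. The *Atxn7l2* stretch lies on the minus strand in exon 2 (chr3:108011358-108011363) and exon 3 (chr3:108010892-108010985) of the transcript with the longest coding sequence, and that of *Atxn7* on the plus strand in exon 3 (chr14:14846164-14846169) and exon 4 (chr14:14885433-14885526), all in NCBIM37. Both are shown 5′ to 3′ along the coding strand, and capitals mark the 25 bases that differ.
Atxn7l2: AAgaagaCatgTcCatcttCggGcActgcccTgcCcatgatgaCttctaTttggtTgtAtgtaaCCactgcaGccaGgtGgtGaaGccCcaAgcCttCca
Atxn7: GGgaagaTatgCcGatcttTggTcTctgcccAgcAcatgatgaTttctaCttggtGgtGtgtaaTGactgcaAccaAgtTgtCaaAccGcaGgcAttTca

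*Atxn7l2* and *Atxn7l1* also matched best at 75 of 100 bases, in a stretch that overlaps the former. It lies in *Atxn7l2* exon 3 (chr3:108010881-108010971) and exon 4 (chr3:108010514-108010522), minus strand, and in *Atxn7l1* exon 3 (chr12:33902591-33902681) and exon 4 (chr12:34010776-34010784), plus strand, with capitals again at the 25 bases that differ. Exon 3 of *Atxn7l2* thus holds most of the most alike coding sequence in both pairs. The best match with *Atxn7l3* was 57 of 100 bases.
Atxn7l2: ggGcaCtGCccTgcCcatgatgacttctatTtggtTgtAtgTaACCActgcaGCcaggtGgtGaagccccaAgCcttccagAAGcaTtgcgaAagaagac
Atxn7l1: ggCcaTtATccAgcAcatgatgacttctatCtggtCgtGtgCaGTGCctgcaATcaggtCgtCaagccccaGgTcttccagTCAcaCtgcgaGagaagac

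Across the 21 libraries, in log2 CPM, the Pearson r of the members with *Atxn7l2* was 0.14 for *Usp22*, 0.076 for *Atxn7*, 0.038 for *Atxn7l3*, -0.12 for *Atxn7l1* and -0.20 for *Eny2*. After group means were subtracted these were -0.011, -0.042, 0.34, 0.11 and -0.23. Without HFD NoDS replicates 20 and 21, the libraries farthest from the median of *Atxn7l2*, they were 0.28, -0.092, -0.21, -0.084 and 0.18, so the sign of each but *Atxn7l1* and *Usp22* changed with those libraries. The genes most like *Atxn7l2* among those tested were *1810055G02Rik* (r = 0.76, Spearman rho = 0.68), *Nek8* (0.75 and 0.78), *Exosc2* (0.74 and 0.76), *March11* (0.73 and 0.68) and *Pear1* (0.73 and 0.69). With group means subtracted, r was 0.52, 0.52, 0.62, 0.32 and 0.54, so part of the likeness was also present between libraries of the same group. Without those 2 libraries r was 0.81, 0.64, 0.67, 0.71 and 0.70. Most opposite were *Scaf8* (r = -0.75, rho = -0.68), *Dph3* (-0.73 and -0.74) and *1810026J23Rik* (-0.73 and -0.71), with -0.70, -0.44 and -0.53 after group means were subtracted and -0.65, -0.69 and -0.64 without those 2 libraries. These genes were picked as the extremes of all tested genes over libraries that share diet groups and sequencing, so their r is a description. *Exosc2*, a subunit of the RNA exosome, averaged 465.6, 508, 458 and 573 normalised reads in RC NoDS, RC → HFD, HFD → RC and HFD NoDS.

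Cell type markers varied beside the members. Oligodendrocyte markers (5 genes, *Mbp* the most abundant, none at 0) summed to 2451 ± 470.5 CPM in RC NoDS, 2852 ± 429 in RC → HFD, 4754 ± 2034 in HFD → RC and 3818 ± 1422 in HFD NoDS. *Mobp* and *Mbp* of that list were called higher in HFD → RC than in RC NoDS (adjusted p = 0.0614 and 0.115 by edgeR; log2 differences 1.19 and 1.04). DESeq2 also called both (adjusted p = 0.0284 and 0.0984). limma-voom called neither (adjusted p = 0.152 and 0.213), nor did limma-trend (0.184 and 0.228) or edgeR with the zero share as a covariate (0.280 and 0.557). *Mbp* was also not called by edgeR with library size only (0.155). Both edgeR calls also ended when RC NoDS replicate 1, 2 or 5 or HFD → RC replicate 13, 14 or 15 was left out, at adjusted p of 0.334, 0.167, 0.169, 0.270, 0.175 and 0.186 for *Mobp* in that order. *Mobp* was also called among all 4 groups by edgeR (adjusted p = 0.125) and by DESeq2, but not by limma-voom (0.318) or by edgeR with the zero share as a covariate (0.403). The edgeR call ended without any of RC NoDS replicates 1, 2 and 5, RC → HFD replicates 7 to 11 and HFD → RC replicates 13 to 15, with adjusted p from 0.163 to 0.364. The list gave 21 of 40 tests at unadjusted p under 0.05 over the 8 comparisons (52.5%, against 7.45% over all genes tested). Its median log2 difference was 0.58 in HFD NoDS against RC NoDS and 0.74 in HFD → RC against RC → HFD, with all 5 genes above 0 and under that p in both by edgeR and none called by edgeR, DESeq2 or limma-voom with all 21 libraries. Without HFD → RC replicate 16 edgeR called *Mobp* and *Mbp* in HFD → RC against RC → HFD (adjusted p = 0.0645 and 0.0701). In HFD → RC replicate 16, which had the lowest *Atxn7l2* of all libraries at 299.8, the markers summed to 2477 CPM, and in HFD → RC replicate 14, with 301 reads of *Atxn7l2*, to 7717, the highest of all. HFD NoDS replicates 24 and 20, the lowest and highest of their group, stood at 2424 and 5426 CPM with 458 and 486 reads of *Atxn7l2*. The part of these markers in the *Atxn7l2* values was not tested.

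The sums of the other cell type lists moved less. Neuronal markers (5 genes, led by *Snap25*) averaged 1973, 2131, 2147 and 2046 CPM in RC NoDS, RC → HFD, HFD → RC and HFD NoDS. Astrocyte markers (5, led by *Slc1a3*) averaged 1380.4, 1336, 1479.5 and 1487 CPM. *Gfap*, the astrocyte filament gene, was called among all 4 groups by edgeR (adjusted p = 0.125) and DESeq2 (0.0898). It was not called by limma-voom (0.265), limma-trend (0.270) or edgeR with the zero share as a covariate (0.403). With each of the 21 libraries left out its adjusted p in edgeR ran from 0.0236 (HFD → RC replicate 16) to 0.295 (HFD NoDS replicate 23), and it stayed below the threshold only for RC NoDS replicates 3 and 6, HFD → RC replicates 14, 15 and 16 and HFD NoDS replicates 21 and 24. In HFD NoDS against RC → HFD, where *Atxn7l2* was higher, *Gfap* was higher by 1.02 on the log2 scale in DESeq2 (adjusted p = 0.0992). edgeR did not call it there with its main settings, but did with only the groups compared (0.0436), no minimum (0.0641) or library size only (0.143). Without HFD → RC replicate 14 (0.135) or HFD NoDS replicate 24 (0.142) edgeR also called it higher in HFD NoDS than in RC NoDS. Of the 5 astrocyte markers, 2 lay above 0 and 3 below in HFD NoDS against RC → HFD (median log2 difference -0.021 by edgeR). In HFD NoDS against RC NoDS, 4 lay above 0 and 1 below (median 0.024). The part of *Gfap* in the *Atxn7l2* values was not tested. Microglial markers (5, led by *Csf1r*) averaged 224, 219, 241 and 255 CPM, and endothelial markers (5, led by *Flt1*) 129, 144, 141 and 135. Those of oligodendrocyte precursors (3, led by *Gpr17*) averaged 180.4, 179.5, 202 and 196 CPM and those of tanycytes and ependyma (5, led by *Col23a1*) 386, 316, 323 and 403. edgeR and limma-voom called 0 genes of the neuronal, microglial, endothelial, precursor and tanycyte lists in the 8 comparisons with all 21 libraries. At unadjusted p under 0.05 edgeR gave 13 of 40 tests of the neuronal list over the 8 comparisons (32.5%), 8 of 40 of the microglial (20.0%), 2 of 40 of the endothelial (5.00%), 5 of 24 of the precursor (20.8%) and 11 of 40 of the tanycyte list (27.5%), against 7.45% over all genes tested. All of these lists but the endothelial thus lay above that share without a called gene in edgeR, and DESeq2 called 0, 0, 0, 2 and 1. The comparisons share group means and genes of a list can vary together, so these shares are a description. Without the 4 libraries of high zero share edgeR called *Snap25* in HFD → RC against RC NoDS (adjusted p = 0.135) and for the interaction (0.101), *Dio2* of the tanycyte list for the interaction (0.0943), and *Col23a1* among all 4 groups (0.0920), in HFD → RC against HFD NoDS (0.0995) and RC NoDS (0.0872) and for the interaction (0.0286). With a single library left out, it called *Col23a1* for the interaction without RC NoDS replicate 3 (0.122), RC → HFD replicate 10 (0.149), HFD → RC replicate 14 (0.113) or HFD NoDS replicate 19 (0.121) or 20 (0.0858). *Gpr17* was called in HFD → RC against RC NoDS without HFD → RC replicate 16 (0.102) or 17 (0.144).

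Of the arcuate markers *Npy*, *Agrp* and *Cartpt*, which encode feeding peptides, were called among all 4 groups (adjusted p = 4.74e-06, 0.00259 and 0.00232 by edgeR), and of the paraventricular markers *Trh* (4.74e-06). In HFD NoDS against RC NoDS edgeR called *Cartpt* and *Trh* higher (adjusted p = 0.000930 and 2.36e-07) and *Npy* and *Agrp* lower (7.79e-05 and 0.0507). In HFD → RC against HFD NoDS it called *Cartpt* lower and *Npy* higher (both 0.0314). That *Npy* call ended with only the groups compared or without the 4 libraries of high zero share. *Cartpt* in these pairs, and *Trh* in the first, went the way of *Atxn7l2*. edgeR also called *Trh* higher in RC → HFD and in HFD → RC than in RC NoDS (adjusted p = 0.000720 and 0.000239), and DESeq2 called only the second. *Atxn7l2* differed by 0.10 (SE 0.11) and -0.15 (SE 0.11) in those pairs. The part of *Cartpt* and *Trh* in the *Atxn7l2* values was not tested. *Hcrt* of the lateral list was called higher in HFD NoDS than in RC NoDS by edgeR (adjusted p = 0.0513) and DESeq2 (0.0227). It was not called by limma-voom (0.642) or limma-trend (0.453). The edgeR call ended with the zero share as a covariate (0.999), with only the groups compared (0.175) or without the 4 libraries of high zero share (0.386). It also ended without RC NoDS replicate 1, 2 or 5 or HFD NoDS replicate 20 or 21 (0.174, 0.244, 0.258, 0.289 and 0.226). edgeR called 0 genes of the ventromedial, choroid plexus, and pituitary and blood lists with all 21 libraries fitted together, and DESeq2 and limma-voom also called 0. Without the 4 libraries of high zero share edgeR called *Gh* in HFD → RC against HFD NoDS (adjusted p = 0.122) and among all 4 groups (0.0439), and *Nr5a1* of the ventromedial list for the interaction (0.119, and 0.138 without HFD NoDS replicate 20 alone). With only the groups compared it called *Hbb-b1* and *Hba-a1* lower in RC → HFD than in RC NoDS (0.000315 and 0.00413). Without HFD → RC replicate 16 it called *Hbb-b1* in that pair (0.0409), in HFD → RC against RC → HFD (0.0645) and among all 4 groups (0.0236). The genes called by an alternative alone were named after their values were seen. At unadjusted p under 0.05 edgeR gave 4 of 24 tests of the ventromedial list (16.7%), 0 of 8 of the choroid plexus and 16 of 32 of the pituitary and blood list, for which DESeq2 and limma-voom each gave 5 of 32 (15.6%). *Hbb-b1* and *Hba-a1* differed by -0.70 and -0.40 in HFD NoDS against RC NoDS and by 0.43 and 0.26 in HFD → RC against HFD NoDS. *Gh* had 2009 normalised reads in HFD → RC replicate 13 with a group median of 0.999 and at most 0.995 in HFD NoDS. The part of this list in the *Atxn7l2* values was not tested. The sums of the arcuate list were 1083 ± 177, 1047 ± 181, 1003 ± 191 and 1157 ± 155 CPM in RC NoDS, RC → HFD, HFD → RC and HFD NoDS, overlapping between groups. Those of the paraventricular list were 1041 ± 459, 1021 ± 337, 849 ± 459 and 1154 ± 584 CPM in the same order, also overlapping. By group mean, *Atxn7l2* was lowest and highest where both sums were, but RC → HFD had lower sums and more *Atxn7l2* than RC NoDS. HFD NoDS replicate 23, at 479.9 reads of *Atxn7l2*, had the highest of both sums, 1419 and 1933 CPM. HFD → RC replicate 14, at 301 reads, had 1322 and 1639 CPM. HFD NoDS replicate 19, at 447 reads, had the lowest paraventricular sum, 309.9 CPM. The part of these sums in the *Atxn7l2* values was not tested.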

How the data were processed

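PolyA RNA of pooled VH punches had been sequenced as 100-base single-end reads. The deposited values were counts per gene: the authors aligned reads to mm9 with STAR 2.5.1b and merged runs with Picard 2.7.1 (versions in the submitters' notes), then re-sampled libraries to a common depth. Totals were thus near equal, and precision was limited by reads per gene. Here, edgeR 4.0.16 in R 4.3.3 (TMM, quasi-likelihood, 1 mean per group, all 21 libraries) tested the 12768 genes averaging at least 50 reads, with Benjamini-Hochberg adjustment and a threshold of 0.15. The code was tested on simulated data. Alternatives were DESeq2 1.42.0, limma 3.58.1 (voom, and trend on log2(count + 1)), a minimum of 5 reads, no minimum, library size only, only the 2 groups compared, the zero share as a covariate, each of 21 libraries left out, and, added after seeing the data, the 4 libraries with a zero share over 20% left out. Replicates were separate pools; 45 pairs within groups differed by 6.47 to 38.1 times counting noise (chi-square per degree of freedom), so none was a duplicate. Gene models, which the table does not hold, were those of GENCODE M1 on NCBIM37 and matched 21654 of 21654 identifiers; the authors used a later annotation. Named were the 6 members, from each list the genes called and the gene with the smallest p among all 4 groups, the 3 nearest genes on each side of *Atxn7l2*, and the 5 genes most like and the 3 least like it. From the marker lists, genes were named from among those called, others only where they led a sum or described the tissue. The members and lists were chosen with earlier results of these data known.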

Additional observations from a re-analysis of the deposited data

Results flagged for a closer look

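For 46 named genes the reads of each diet group were checked for a library far from the rest, as the gap between the highest or lowest library and its nearest neighbour divided by the range of the group. The gap was large in 10 of 184 gene and group combinations. Chance flags about 1 in 20 groups of continuous values. Some flagged groups had reads in a single library, where the gap is 1.0 whatever the reads, so the number is not set against chance. None of the 24 combinations of the 6 members was among the 10.

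*Cyb561d1*, the downstream neighbour of *Atxn7l2*, had 461 normalised reads in HFD NoDS replicate 20, far above the other libraries of its group (gap 0.755 of the range). Of the near-silent neighbours, *Gm12524* had reads in a single library of RC NoDS (replicate 3, 3.96, gap 1.0) and of HFD NoDS (replicate 21, 5.97, gap 1.0), and *Gm12501* in a single library of RC → HFD (replicate 11, 7.08, gap 1.0) and of HFD NoDS (replicate 20, 1.02, gap 1.0). *Ccdc101* was high in RC NoDS replicate 6 (206 reads, gap 0.761) and *Sf3b3* low in HFD NoDS replicate 19 (1909.9 reads, gap 0.711). *Gpr17* was low in RC → HFD replicate 8 (1234 reads, gap 0.734) and *Trh* high in RC → HFD replicate 12 (2083 reads, gap 0.653). *Dph3* was high in RC NoDS replicate 1 (647 reads, gap 0.910).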

How the results depend on the processing

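None of the 7 differences of *Atxn7l2* changed direction or moved by more than the spread between libraries under any alternative. HFD → RC against HFD NoDS ran from -0.58 to -0.50 with each of the 21 libraries left out and from -0.54 to -0.48 under the other alternatives, HFD NoDS against RC NoDS from 0.34 to 0.44 and from 0.36 to 0.39, and HFD NoDS against RC → HFD from 0.25 to 0.32 and from 0.27 to 0.30. HFD → RC against RC → HFD ran from -0.30 to -0.22 and from -0.25 to -0.17, HFD → RC against RC NoDS from -0.20 to -0.093 and from -0.18 to -0.11, RC → HFD against RC NoDS from 0.054 to 0.16 and from 0.060 to 0.11, and the interaction from 0.37 to 0.48 and from 0.42 to 0.46. The other members were called 0 times in every comparison and setting, over 1045 alternative values.

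Small differences of other members changed sign, in 18 of 35 results, the largest at 0.28 in size; the cause was not tested. With the zero share as a covariate, HFD NoDS against RC NoDS was 0.0021 for *Atxn7* and 0.046 for *Eny2*, and *Eny2* was 0.064 in HFD → RC against RC → HFD, 0.0028 against HFD NoDS and 0.049 against RC NoDS, and 0.061 in HFD NoDS against RC → HFD; *Atxn7l1* in HFD → RC against RC → HFD was -0.016. That *Atxn7l1* difference was -0.024 by limma-voom, -0.024 by limma-trend and -0.00056 with a minimum of 5 reads. *Eny2* in HFD → RC against HFD NoDS was 0.025 by limma-voom and 0.022 by limma-trend, and in HFD NoDS against RC → HFD 0.0060 with library size only. The *Usp22* interaction was 0.022 by limma-trend and 0.021 with library size only. Without the 4 libraries of high zero share (added after seeing the data), *Atxn7* was 0.18 in HFD → RC against RC → HFD, 0.13 against HFD NoDS, 0.11 against RC NoDS and -0.058 for the interaction, *Atxn7l1* 0.054 and *Usp22* 0.0083 in HFD → RC against RC NoDS, *Usp22* 0.020 in HFD → RC against HFD NoDS, and *Eny2* 0.17 in HFD NoDS against RC → HFD.

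With each library left out, *Atxn7* ran from -0.092 to 0.059 in HFD NoDS against RC NoDS, from -0.17 to 0.11 in HFD → RC against RC → HFD, from -0.23 to 0.044 against HFD NoDS, from -0.24 to 0.034 against RC NoDS and from -0.021 to 0.13 in HFD NoDS against RC → HFD. *Atxn7l1* ran from -0.089 to 0.11 in HFD → RC against RC → HFD, from -0.10 to 0.094 against RC NoDS and from -0.059 to 0.063 in RC → HFD against RC NoDS. *Eny2* ran from -0.24 to 0.050 in HFD → RC against HFD NoDS and from -0.11 to 0.18 in HFD NoDS against RC → HFD, and *Usp22* from -0.045 to 0.0098 in HFD NoDS against RC NoDS and from -0.046 to 0.020 for the interaction.

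The number of genes called over the whole table depended far more on the setting, and the cause was not tested. In the order HFD NoDS against RC NoDS, HFD → RC against RC → HFD, RC → HFD against RC NoDS, HFD → RC against HFD NoDS, HFD → RC against RC NoDS, HFD NoDS against RC → HFD, interaction and all 4 groups, edgeR called 10, 1, 5, 9, 36, 2, 4 and 19 genes and DESeq2 17, 5, 96, 44, 147, 32, 116 and 133. For HFD → RC against RC NoDS the count was 7 by limma-voom, 7 by limma-trend, 10 with library size only, 1 with the covariate and 104 without the 4 libraries. The interaction gave 15, 2, 2, 33 and 250 in these settings and 0 with a minimum of 5 reads. HFD → RC against HFD NoDS gave 4 with a minimum of 5 reads, 5 with no minimum, 15 with the covariate, 1 with only its groups and 44 without the 4 libraries, and HFD NoDS against RC → HFD gave 1, 5, 1 and 4 in the first of these settings. HFD → RC against RC → HFD gave 2 with a minimum of 5 reads, 3 with no minimum and 0 without the 4 libraries. RC → HFD against RC NoDS gave 24 with only its groups and HFD NoDS against RC NoDS 6 with the covariate. All 4 groups gave 11 by limma-trend, 31 with no minimum, 9 with the covariate and 32 without the 4 libraries.

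With each library left out these counts ran, in the order above, from 5 (without RC NoDS replicate 1) to 14, from 1 to 41 (without HFD → RC replicate 16), from 4 to 11 (without HFD NoDS replicate 20), from 1 (without HFD → RC replicate 15 or 17 or HFD NoDS replicate 23) to 13, from 1 (without RC NoDS replicate 1, 2 or 5 or HFD → RC replicate 13 or 14) to 205 (without HFD → RC replicate 16), from 1 to 31 (without HFD NoDS replicate 19), from 0 to 124 (without HFD NoDS replicate 20) and from 9 (without RC → HFD replicate 11) to 80 (without HFD → RC replicate 16). The count of HFD → RC against RC NoDS was also 145 without HFD NoDS replicate 20, 76 without RC → HFD replicate 12, 67 without RC NoDS replicate 6, 23 without RC → HFD replicate 7 and 2 without HFD → RC replicate 15, and that of the interaction 103 without HFD NoDS replicate 19 and 44 without HFD → RC replicate 14. A move by more than 1.5 times occurred in 1, 4, 4, 7, 11, 12, 20 and 11 of the 21 fits, so most of these counts depended on which library was left out. At the reads per library of these genes counting error alone gives *Atxn7l2* and *Atxn7* a coefficient of variation near 5%, which limits how small a difference 5 libraries per group can show. No paired analysis was possible because the replicate numbers do not repeat between groups.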
